A study of Homo sapiens with 12 samples.

Results

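OCI-AML3, a human acute myeloid leukaemia cell line, was compared in 3 states, given by 3 of the 12 libraries of the study: the DMSO vehicle as control, 10 µM pioglitazone and 10 µM darglitazone, each for 12 h. The 3 libraries were chosen by the cell line on their labels. The other 9 libraries came from MOLM-14, MV4-11 and KG-1a, also acute myeloid leukaemia lines, under the same 3 treatments. No genotype or transgene is labelled for any line. There was 1 library per line and treatment, so a ratio within OCI-AML3 describes 2 libraries and carries no test. Both ratios to DMSO share the 1 DMSO library, and an odd value in it would move both. Total RNA was sequenced after removal of ribosomal RNA with a stranded kit. In bulk RNA, fewer cells of a kind and less RNA per cell cannot be told apart.

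Pioglitazone and darglitazone are thiazolidinediones, ligands that activate PPARγ, a nuclear receptor that pairs with RXR and is best known for driving fat storage genes in adipose tissue. They share the thiazolidinedione head group and differ at the other end of the molecule, where pioglitazone carries an ethyl-pyridine and darglitazone a methyl-phenyl-oxazole. Several stress and signalling programmes can be read from RNA. NF-kB switches on cytokines and its own inhibitors. Growth factor and stress kinases switch on immediate early genes such as FOS and EGR1 within minutes. The integrated stress response slows protein synthesis and raises ATF4, which in turn raises amino acid transporters, amino acid synthesis enzymes and feedback regulators. The genes of G2 and mitosis rise late in each cell cycle.

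With darglitazone, OCI-AML3 showed higher levels of NF-kB cytokines, immediate early genes and integrated stress response genes, and lower levels of G2 and mitosis genes. IL1B was 8.86-fold above DMSO, TNF 7.33-fold, EGR1 14.6-fold and GDF15 13.1-fold, and CCNB1 was at 0.309 of its DMSO level. With pioglitazone, IL1B and GDF15 were within counting error of DMSO. The G2 and mitosis genes were lower there too, in 24 of 28 cases (15 relative to the median gene). All 27 measured replication-dependent histone genes were at least 2-fold below DMSO with pioglitazone (20 relative to the median gene). Over all measured genes 16.1% were below with pioglitazone. None of the 25 measured PPAR target genes was past the fold above DMSO with either drug (1 with pioglitazone relative to the median gene). Over all measured genes 2.61% were above with darglitazone and 2.94% with pioglitazone, so a count of 0 among 25 is near those shares.

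The stretches upstream of 4 genes are shown because they hold short motifs tied to these programmes. They are the 250 bases before the RefSeq start on GRCh38.p14, written 5′ to 3′ on the gene's strand, with motif matches in capitals. Matches on either strand are marked, so the stretches GGAAATTCC and TTCAAA hold their motif on the opposite strand. NFKBIA encodes the inhibitor IκBα, ICAM1 an adhesion molecule for leukocytes, CHAC1 a glutathione-degrading enzyme of the integrated stress response, and CDC20 an activator of the mitotic ubiquitin ligase APC/C. NFKBIA lies at chr14:35404750-35404999 on the minus strand and its 2 matches to the kB motif GGNNTTTCC begin 242 and 81 bases before the start. ICAM1 lies at chr19:10270870-10271119 on the plus strand, with 1 kB match that begins 186 bases before the start. CHAC1 lies at chr15:40953221-40953470 on the plus strand, with 1 match to the C/EBP-ATF motif TTGCATCA that begins 209 bases before the start. CDC20 lies at chr1:43358731-43358980 on the plus strand, with 2 matches to the cell cycle motif CHR, TTTGAA, that begin 178 and 65 bases before the start.
NFKBIA: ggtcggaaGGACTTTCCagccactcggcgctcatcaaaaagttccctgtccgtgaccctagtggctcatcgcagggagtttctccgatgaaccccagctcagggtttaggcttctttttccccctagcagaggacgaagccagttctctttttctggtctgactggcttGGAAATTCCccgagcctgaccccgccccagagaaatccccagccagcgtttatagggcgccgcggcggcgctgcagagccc
ICAM1: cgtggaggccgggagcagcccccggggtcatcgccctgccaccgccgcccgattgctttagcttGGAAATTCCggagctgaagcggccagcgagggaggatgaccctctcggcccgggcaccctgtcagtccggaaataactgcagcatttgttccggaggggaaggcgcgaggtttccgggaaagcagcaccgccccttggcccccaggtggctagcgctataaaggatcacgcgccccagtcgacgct
CHAC1: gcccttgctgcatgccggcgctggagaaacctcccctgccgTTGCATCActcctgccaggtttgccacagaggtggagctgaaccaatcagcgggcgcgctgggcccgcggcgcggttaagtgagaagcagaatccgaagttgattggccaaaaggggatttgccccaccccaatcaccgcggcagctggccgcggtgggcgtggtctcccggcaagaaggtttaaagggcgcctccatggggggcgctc
CDC20: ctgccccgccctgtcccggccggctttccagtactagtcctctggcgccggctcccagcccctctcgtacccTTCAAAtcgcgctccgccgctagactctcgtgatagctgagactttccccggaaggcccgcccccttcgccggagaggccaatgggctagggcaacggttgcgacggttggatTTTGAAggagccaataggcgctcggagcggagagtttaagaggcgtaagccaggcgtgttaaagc

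Motifs were searched on both strands of the same window in 27305 promoters, of which 8144 matched the 10193 measured genes by symbol. The kB motif was found in 5.5% of all promoters, in 6.1% of those of measured genes and in 7 of 18 promoters of measured NF-kB list genes. CHR was found in 13.6% of all promoters, in 8.4% of those of measured genes and in 11 of 22 of the G2/M list. The C/EBP-ATF motif was found in 0.8% of all promoters, in 0.3% of those of measured genes and in 2 of 28 of the integrated stress response list. The AP-1 motif TGANTCA (6.6% of all promoters and 3.4% of those of measured genes) was in 0 of 15 promoters of the immediate early list. The antioxidant motif TGACNNNGC (11% and 12.3%) was in 4 of 13 promoters of the NRF2 list. The sterol motif TCACNCCAC (0.9% and 0.8%) was in 1 of 18 of the cholesterol list. The AP-1 and antioxidant motifs can overlap. A match is a run of letters and not a measured binding site. Matches to CHR were also in the windows of CCNB2 and PLK1. The search found no kB match in the windows of IL1B and TNF, no C/EBP-ATF match in those of GDF15, ASNS, TRIB3, DDIT3, SESN2 and ATF3, no antioxidant match in that of SQSTM1 and no CHR match in that of CCNB1. This says only that these letters are not in those stretches.

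The 3 libraries differed in depth. They held 64.23 M (mega-counts) with DMSO, 1.1 M with pioglitazone and 20.27 M with darglitazone, and the floor of 3 counts corresponded to 0.0497, 2.45 and 0.146 CPM (counts per mega-count of the scaled library total). Counting intervals and floors cover counting error only. An entry in the ribosomal DNA region, FP671120.3, took 0.04212%, 6.175% and 0.07386% of the counts, and protein-coding genes took 85.06%, 74.8% and 84%. Genes specific to KG-1a (71 genes) were found at a median of 0.114%, 1.79% and 0.109% of their KG-1a level, so the pioglitazone library also held more of the RNA pattern of that line. CD34, which marks KG-1a in this study, was at 0.0829, 7.36 and 0.194 CPM. A further 8 protein-coding genes without a count in any DMSO library were at 10 CPM or more in the pioglitazone library, for example KRT82 at 120 CPM. The part of these features in the pioglitazone results was not tested unless a value is given.

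The lineage of OCI-AML3 was visible in all 3 libraries. SPI1, the myeloid transcription factor PU.1, was at 205, 101 and 223 CPM with DMSO, pioglitazone and darglitazone. The myeloid antigen CD33 was at 87.7, 31.9 and 80.9 CPM, lysozyme (LYZ) at 654, 340 and 336 CPM, and myeloperoxidase (MPO) at 10, 5.73 and 6.16 CPM. HOXA9 was at 33.4, 40.9 and 35.8 CPM, and HOXB4 had no count in any of the 3. Of the HOXA, HOXB and cofactor genes, 6 of 16 were measured and none passed the fold with either drug. Of the 8 B cell markers none reached the 5 CPM level used here, and MS4A1 and VPREB1 had no count. Of 10 T and NK cell markers only NKG7 reached that level, at 9.24, 7.36 and 9.8 CPM, and CD3E, CD2, CD8A and GZMB had no count. Of 14 erythroid and megakaryocyte markers only EPOR did, at 9.44, 3.27 and 7.09 CPM, and HBB, HBA1, ALAS2 and PF4 had no count.

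A gene was called measured at a mean of 5 CPM or more over the 3 libraries (10193 genes). It was called past the fold where its ratio was at least 2-fold and the 95% counting interval of the ratio excluded equality. With darglitazone 266 of 10173 genes were past the fold above DMSO (2.61%) and 400 below (3.93%). With pioglitazone 300 of 10193 were above (2.94%) and 1639 below (16.1%). The median gene lay at -0.16 with darglitazone and at -0.44 with pioglitazone on the log2 scale. When each ratio was taken relative to that median, the split was 367 above and 221 below with darglitazone, and 652 above and 552 below with pioglitazone. List medians are therefore given after subtraction of the median of all measured genes, and this is called the shift of a list. A member can pass the level of 5 CPM through the library in which it is high, so counts over measured members describe those members only.

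Ratios also moved with the GC content of transcripts. With darglitazone the median log2 ratio was -0.44 in the quintile of genes with the lowest GC content and 0.07 in the quintile with the highest. Across genes, which are not independent replicates, Pearson's r between GC content and the ratio was 0.37. With pioglitazone the medians ran the other way, from -0.31 to -0.73, with r = -0.19. In the other 3 lines r ran from -0.25 to 0.01. Shifts were therefore also computed after centring within bins of GC content and transcript length. The centred value is printed for the main lists and for some of the others where it differed in sign or by at least 1.5 times. The plot of list shifts shows it for both drugs, for lists with at least 5 measured members.

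**Figure D1:**
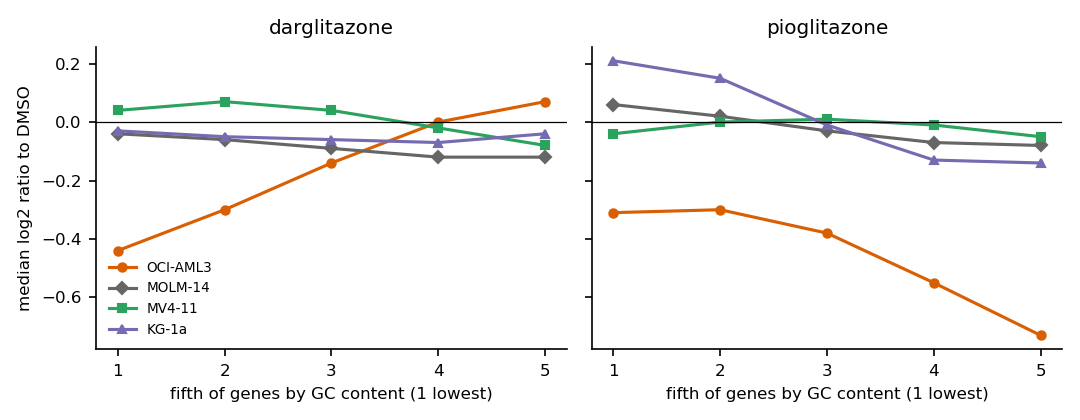
Median log2 ratio to DMSO (vertical axis) in quintiles of measured genes by GC content (horizontal axis, 1 lowest), for darglitazone (left) and pioglitazone (right) in the 4 lines, 1 library per point and treatment. In OCI-AML3 the darglitazone medians go up from -0.44 to 0.07 and the pioglitazone medians end at -0.73.

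IL1B encodes the inflammatory cytokine interleukin-1β and lies on chromosome 2, 112829751 to 112836903 (GRCh38, minus strand). Its level was 5.26 CPM with DMSO, 5.73 with pioglitazone and 46.6 with darglitazone. The darglitazone library stood alone, with a log2 ratio of 3.15 (95% counting interval 2.96 to 3.34), while the pioglitazone log2 ratio was 0.12 (-1.2 to 1.18) from 7 counts. GDF15, a stress-induced cytokine of the TGF-β family on chromosome 19 (18374731 to 18389176), was at 2.16, 3.27 and 28.3 CPM. Its darglitazone log2 ratio was 3.71 (3.44 to 4.0) and its pioglitazone log2 ratio, from 4 counts, 0.60 (-1.3 to 1.99). SQSTM1 encodes p62, an autophagy receptor that also releases NRF2, and lies on chromosome 5 (179806398 to 179838078). It was at 75.5, 94.9 and 195 CPM, which gave log2 ratios of 1.37 (1.31 to 1.43) with darglitazone and 0.33 (0.05 to 0.59) with pioglitazone. All 3 genes were past the fold with darglitazone and none was with pioglitazone, where the interval of SQSTM1 excluded equality and those of IL1B and GDF15 did not. Relative to the median gene the pioglitazone log2 ratios of IL1B, GDF15 and SQSTM1 were 0.57, 1.04 and 0.77, and after centring by GC content and length 0.48, 1.45 and 0.96, with none past the fold.

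**Figure D2:**
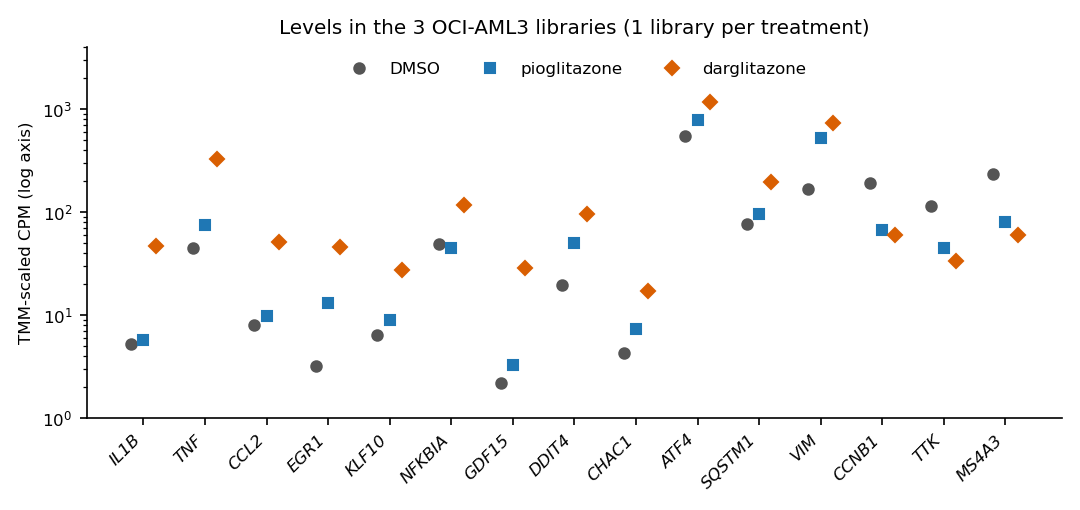
Level of 15 genes (TMM-scaled CPM, log axis) in the 3 OCI-AML3 libraries, 1 point per library with no error bar. IL1B goes from 5.26 CPM with DMSO to 46.6 with darglitazone and stays at 5.73 with pioglitazone, while CCNB1 goes from 193 to 67.1 with pioglitazone and 59.6 with darglitazone.

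Among NF-kB cytokines and feedback genes, 21 of 37 were measured, and with darglitazone 10 were past the fold above DMSO and 1 below. The shift of the list was 1.15, and 1.19 after centring by GC content and length. TNF, the cytokine tumour necrosis factor, was at 44.3 CPM with DMSO, 75.2 with pioglitazone and 325 with darglitazone. CXCL8, a chemokine for neutrophils, was at 97.4, 199 and 469 CPM, and CCL2, a chemokine for monocytes, at 8.03, 9.81 and 51.3 CPM. In each of these the darglitazone library was the highest, and only CXCL8 was past the fold with pioglitazone as well (log2 ratio 1.03, interval 0.84 to 1.21). IER3, an early response gene of NF-kB, had a darglitazone log2 ratio of 2.48 (2.26 to 2.71). The feedback inhibitor NFKBIA, whose upstream stretch is printed above, was at 48.8, 45 and 116 CPM, and PLAUR, the urokinase receptor, at 84.5, 76.1 and 267 CPM. REL, a subunit of NF-kB itself, was the 1 member below, at 19.7, 27 and 8.69 CPM. Of the 19 members that reached 5 CPM in the DMSO library itself, 8 were past the fold above and 1 below.

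Of 22 immediate early genes of the AP-1 group, 19 were measured, with 11 past the fold above DMSO and none below with darglitazone. The shift was 1.5, and 1.31 after centring by GC content and length. EGR1, a zinc finger factor, was at 3.15, 13.1 and 45.9 CPM with DMSO, pioglitazone and darglitazone. It was past the fold with both drugs, with a darglitazone log2 ratio of 3.87 (3.64 to 4.1) and a pioglitazone log2 ratio of 2.05 (1.22 to 2.79). FOS was at 20.1, 18.8 and 62.3 CPM, JUN at 9.58, 19.6 and 25.2 CPM, and KLF10 at 6.37, 9 and 27 CPM. The phosphatases that switch off ERK were also among them: DUSP6 was at 43.7, 35.2 and 120 CPM and DUSP5 at 4.21, 5.73 and 14.1 CPM. FOSB and FOSL1 were near their DMSO level with darglitazone, at log2 ratios of -0.14 and 0.10. Of the 16 members at 5 CPM in DMSO, 8 were past the fold above.

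Of 35 integrated stress response genes, 32 were measured, and with darglitazone 14 were past the fold above DMSO and none below. The shift was 1.03, and 1.09 after centring by GC content and length. ATF4, the factor at the centre of the response, was at 543, 789 and 1173 CPM with DMSO, pioglitazone and darglitazone. DDIT4, an inhibitor of mTORC1, was at 19.3, 49.9 and 95.2 CPM, and SESN2, another inhibitor of mTORC1, at 43.7, 55.6 and 141 CPM. DDIT3, the factor CHOP, was at 14.3, 11.5 and 48.9 CPM, and TRIB3, which restrains ATF4, at 203, 339 and 631 CPM. These genes were highest with darglitazone in every case, and DDIT4 was past the fold with pioglitazone too (log2 ratio 1.37, interval 0.98 to 1.74). CHAC1 had a darglitazone log2 ratio of 2 (1.76 to 2.23). SLC7A11, the cystine importer, was higher with pioglitazone than with darglitazone, at 108, 399 and 316 CPM. The amino acid exchanger SLC7A5 and its partner SLC3A2 were at 730, 994 and 1787 CPM and at 337, 428 and 754 CPM. The tRNA synthetases of the list were under the fold: GARS1 was at a log2 ratio of 0.23 and AARS1 at 0.63. Of the 29 members at 5 CPM in DMSO, 11 were past the fold above.

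Among NRF2 targets of redox defence, 4 of 19 measured genes were past the fold above DMSO with darglitazone and none below, at a shift of 0.54. They were SLC7A11, ME1, FTH1 and SQSTM1, of which SLC7A11 is also in the integrated stress response list and SQSTM1 in the autophagy list. FTH1, the ferritin heavy chain, was at 85.1, 238 and 189 CPM with DMSO, pioglitazone and darglitazone. The classic members NQO1, GCLM and TXNRD1 were under the fold, with darglitazone log2 ratios of 0.57, -0.06 and 0.18.

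Of 16 measured cytoskeleton and adhesion genes, 4 were past the fold above DMSO with darglitazone and none below, at a shift of 0.48. The share above over all measured genes was 2.61%. VIM, the intermediate filament vimentin, was at 166, 521 and 726 CPM and so was high with both drugs. FLNA, the actin crosslinker filamin A, was at 695, 849 and 1926 CPM, and TIMP1, an inhibitor of matrix proteases, at 18.7, 26.2 and 49.5 CPM. Among monocyte and macrophage genes 4 of 19 were past the fold above and 1 below, with a shift of -0.04 and of 0.10 after centring by GC content and length. Of the 18 members at 5 CPM in DMSO, 3 were above and 1 below. THBS1, the matrix protein thrombospondin, was at 6.09, 4.09 and 55 CPM and the gelatinase MMP9 at 2.01, 2.45 and 16 CPM. TLR4, the receptor for bacterial lipopolysaccharide, went the other way, at 14.9, 2.45 and 3.88 CPM. The list thus held members at both ends.

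The genes furthest above DMSO with darglitazone, by ratio among protein-coding genes, were TFAP2C, LFNG, EGR1, GDF15, PDGFA, KLLN, DPPA4, AL049557.1, THBS1 and RGS16. LFNG, a glycosyltransferase that modifies Notch, was at 1.18, 8.18 and 20.2 CPM. PDGFA, a growth factor chain, was at 1.89, 49.9 and 23.7 CPM, the highest of the 3 with pioglitazone. RGS16, a regulator of G protein signalling, was at 84.7, 173 and 762 CPM, with a darglitazone log2 ratio of 3.17 (3.12 to 3.22). TFAP2C, PDGFA, KLLN and DPPA4 also varied in KG-1a and MV4-11. In KG-1a they were at 33.1, 408, 150 and 71.9 CPM with DMSO and at 1.47, 34.3, 11.3 and 5 with pioglitazone. With darglitazone they were at 55.5, 317, 94.7 and 88.7 CPM. In MV4-11 they were at 69, 478, 84.6 and 114 CPM with DMSO and at 15.6, 120, 34.4 and 26.6 with pioglitazone. With darglitazone they were at 41.7, 184, 62.4 and 77.1 CPM in that line. THBS1 varied too, at 10.7, 1.79 and 3.68 CPM in MV4-11 and at 6.55, 0.686 and 8.36 CPM in KG-1a. Of the genes furthest above, only LFNG passed the test against the other lines given below (edgeR, adjusted p = 0.0086). Whether such variation enters the OCI-AML3 ratios was not tested. Of the 10 genes furthest below DMSO, AC034102.2, AC019117.2 and CFAP298-TCP10L had no count with darglitazone. Their ratios are bounds against the floor: AC034102.2 was at 21.1 CPM with DMSO. CFAP298-TCP10L and HSPE1-MOB4 are read-through genes, and CT45A1 and SMIM11 have close copies, so that estimated counts can move between overlapping or similar models and these values are uncertain. SCAMP5, a membrane protein of secretory vesicles, was at 15.2, 1.64 and 2.96 CPM. The others of the 10 were RSC1A1, HTD2 and LRRC34, with log2 ratios of -2.61, -2.22 and -2.15.

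All 28 G2/M genes were measured, and with darglitazone 19 were past the fold below DMSO and none above. Taken relative to the median gene the count below was 9, and after centring by GC content and length 7. The shift was -0.94, and -0.80 after that centring. CCNB1, cyclin B1, was at 193 CPM with DMSO, 67.1 with pioglitazone and 59.6 with darglitazone. TTK, a kinase of the spindle checkpoint, was at 113, 45 and 33 CPM, and DLGAP5, a spindle protein, at 96.6, 15.5 and 25.5 CPM. CDC20 was at 241, 80.2 and 109 CPM. In each of these both drug libraries lay well under DMSO. FOXM1, the factor that drives many of them, was nearest to DMSO with darglitazone, at a log2 ratio of -0.23 (98.9, 67.1 and 84.1 CPM). The G1/S and replication genes did not share this pattern with darglitazone: 1 of 31 was past the fold above (CCND1) and none below, at a shift of 0.19 and of -0.02 after centring by GC content and length. Of the 30 members at 5 CPM in DMSO none was past the fold.

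The primary granule genes, which myeloid precursors express, were lower with darglitazone in 4 of 10 measured cases and higher in none, at a shift of -0.56 and -0.63 after centring by GC content and length. MS4A3 was at 234, 80.2 and 59.3 CPM, the elastase ELANE at 27.7, 10.6 and 12.1 CPM, and PRTN3, proteinase 3, at 62.7, 30.3 and 24.2 CPM. RNASE2 was at 186, 90 and 80.7 CPM. All 4 were also past the fold below with pioglitazone. Among myeloid transcription factors 2 of 11 were past the fold above with darglitazone, ID2 and CEBPB, and none below. Of the 10 members at 5 CPM in DMSO, 1 was above.

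Replication-dependent histone genes were lower with darglitazone in 6 of 27 measured cases, at a shift of -0.60. Relative to the median gene, and after centring by GC content and length, 3 were past the fold. With pioglitazone all 27 measured were past the fold below DMSO, at a shift of -1.18. Relative to the median gene the count was 20, and after centring 16. H1-5, a linker histone, was at 1831, 563 and 1000 CPM with DMSO, pioglitazone and darglitazone. H4C2 was at 313, 70.3 and 149 CPM. In both, darglitazone lay between the other 2 libraries. Histone copies are near-identical, and the division of reads between them is uncertain.

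**Figure D3:**
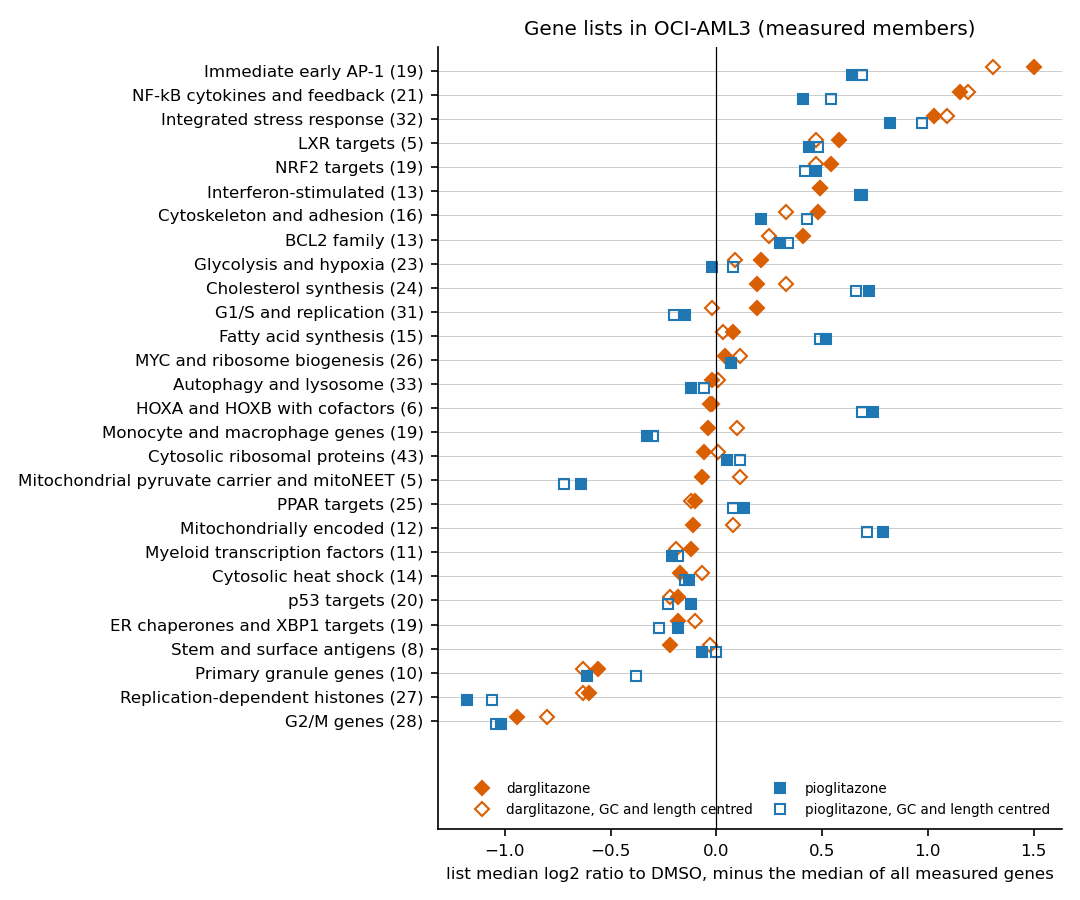
Shift of 28 gene lists (horizontal axis, median log2 ratio to DMSO of the measured members minus the median of all measured genes), for darglitazone and pioglitazone. Open symbols are centred by GC content and length, the number of measured members is in brackets, and the lists carry no error bar and no test. Immediate early genes stand at 1.5 with darglitazone and G2/M genes at -0.94.

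The lists tied to what thiazolidinediones are known for moved little with darglitazone. None of 25 measured PPAR targets was past the fold in either direction, at a shift of -0.10. The shares over all measured genes were 2.61% above and 3.93% below. PPARG itself was at 1.51 CPM with DMSO, at 0 with pioglitazone and at 1.12 with darglitazone, where the pioglitazone floor of 2.45 CPM is above its level. PPARD was at 11.6, 18 and 19.5 CPM and RXRA at 28, 18.8 and 29 CPM. CPT1A, which admits fatty acids to mitochondria, was at 148, 189 and 187 CPM, and PLIN2, a lipid droplet coat protein, at 40.5, 35.2 and 39.6 CPM. CD36 was at 2.11, 3.27 and 2.18 CPM, and TXNIP at 82, 36 and 90.8 CPM. HMOX1 was at 0.713, 0.818 and 3.49 CPM, a darglitazone log2 ratio of 2.29 (1.73 to 2.87) at a low level. Of the mitochondrial pyruvate carrier and mitoNEET genes, reported targets of the class, none of 5 was past the fold with darglitazone, and CISD1, mitoNEET, was at 23.9, 13.1 and 20.6 CPM. Among STAT5, HIF2A and CITED2 genes none of 4 measured was past the fold. STAT5A was at 8.54, 12.3 and 11 CPM, STAT5B at 76.9, 78.5 and 80.6 CPM and CITED2 at 158, 88.3 and 149 CPM. EPAS1, which encodes HIF2A, was not measured at this level, with 0.282, 0.818 and 1.94 CPM.

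Other lists with darglitazone were mixed, and their counts stand beside 2.61% of all measured genes above and 3.93% below. Of 24 cholesterol synthesis genes and 15 fatty acid synthesis genes none was past the fold, at shifts of 0.19 and 0.08 (0.33 and 0.03 after centring by GC content and length). Of 5 LXR targets 1 was, the cholesterol exporter ABCA1 (3.12, 4.09 and 15.6 CPM). Of 13 interferon-stimulated genes 3 were above (OAS3, IRF1 and IRF7) and none below, at a shift of 0.49. Of 23 glycolysis and hypoxia genes 3 were above (VEGFA, SLC2A3 and PFKFB4), at a shift of 0.21 (0.09 after centring), and VEGFA was at 37, 106 and 148 CPM. Of 13 BCL2 family genes BCL2A1 was above, at a shift of 0.41 (0.25 after centring). Among members that reached 5 CPM in the DMSO library itself, none of 4 LXR targets and none of 12 BCL2 family genes was above. By the same rule 2 of 12 interferon-stimulated genes and 2 of 22 glycolysis and hypoxia genes were. Of 33 autophagy and lysosome genes only SQSTM1 was past the fold. The ER chaperone list had 2 of 19 below (SDF2L1 and HSP90B1) and the heat shock list 2 of 14 below (HSPE1 and HSPH1), at shifts of -0.18 and -0.17 (-0.10 and -0.07 after centring). Relative to the median gene 0 ER chaperone genes and 1 heat shock gene were below. Among 20 p53 targets BTG2 was above and FAS below. CDKN1A, the p53 target p21, was at 390, 277 and 689 CPM, a darglitazone log2 ratio of 0.82, and MYC was at 469, 492 and 710 CPM. None of 26 MYC and ribosome biogenesis genes and none of 43 ribosomal protein genes was past the fold. Of 12 mitochondrially encoded genes MT-ND3 and MT-ATP8 were below, at a shift of -0.11 (0.08 after centring). Relative to the median gene 1 of them was below, and after centring by GC content and length 0. Of 8 stem and surface antigens CD82 was above, at a shift of -0.22 (-0.03 after centring).

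With pioglitazone the G2/M list had 24 of 28 genes past the fold below DMSO and none above, at a shift of -1.02. Relative to the median gene 15 were below, and after centring by GC content and length 14. KIF20A, a mitotic kinesin, had a log2 ratio of -2.19 (-2.73 to -1.7). With reads estimated to come from KG-1a subtracted, the shift was -1.0. The integrated stress response list had 6 of 32 above and none below, at a shift of 0.82. Its members past the fold were ATF3, ASNS, DDIT4, ALDH1L2, SLC7A11 and CTH. ASNS, asparagine synthetase, was at 57.4, 152 and 98.8 CPM with DMSO, pioglitazone and darglitazone, and CTH, an enzyme of cysteine synthesis, at 2.22, 13.1 and 6.6 CPM. For these 2 genes the pioglitazone library was the highest. When set against the median gene, 11 members were above, and after centring by GC content and length 14.

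Cholesterol synthesis genes stood at a shift of 0.72 with pioglitazone, with 18 of 24 at a ratio above 1, 1 past the fold above and 1 below. HMGCS1, the enzyme that forms the precursor of mevalonate, was at 46.7, 138 and 63.4 CPM, and PMVK at 14.4, 5.73 and 10.6 CPM. SCD, a fatty acid desaturase, was at 365, 710 and 377 CPM, which at a log2 ratio of 0.96 (0.86 to 1.06) fell short of the fold. Fatty acid synthesis genes stood at a shift of 0.52, with 0 above and 1 below. When set against the median gene, 4 cholesterol genes and 4 fatty acid genes were above and none below. Mitochondrially encoded genes stood at 0.79, with 2 of 12 above (6 relative to the median gene): MT-CO2 was at 170, 460 and 172 CPM and MT-ND2 at 19, 45.8 and 16.1 CPM. The mitochondrial ribosomal RNAs took 6.75%, 10.75% and 6.786% of the counts.

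Over all measured genes 2.94% were past the fold above DMSO with pioglitazone and 16.1% below, and the list counts stand beside these shares. Of the other lists with pioglitazone, NF-kB genes had 2 above and 2 below of 21 at a shift of 0.41, and immediate early genes 3 above and 1 below of 19 at 0.64. NRF2 targets had 3 above of 19 at 0.47, BCL2 family genes 3 above of 13 at 0.30, and interferon-stimulated genes none of 13 at 0.69. Interferon-stimulated genes were at 0.41 once reads estimated to come from KG-1a were subtracted. The HOXA, HOXB and cofactor list was at 0.74 with none past the fold. Primary granule genes had 6 of 10 below at -0.61, monocyte and macrophage genes 1 above and 5 below of 19 at -0.33, and myeloid transcription factors 5 of 11 below at -0.21, among them CEBPE, at 18.3, 1.64 and 9.37 CPM. PPAR targets had 4 of 25 below at 0.13, autophagy and lysosome genes 1 above and 5 below of 33 at -0.12, and p53 targets 6 of 20 below at -0.12. G1/S genes had 7 of 31 below at -0.15, the mitochondrial pyruvate carrier and mitoNEET list 3 of 5 below at -0.64, and stem and surface antigens 3 of 8 below at -0.07. Glycolysis and hypoxia genes had 1 above and 2 below of 23 at -0.02, cytoskeleton and adhesion genes 1 above and 1 below of 16 at 0.21, and ER chaperones 2 of 19 below at -0.18. Heat shock genes had 2 of 14 below at -0.13, MYC and ribosome biogenesis genes 1 of 26 below at 0.07, ribosomal proteins none of 43 at 0.05, LXR targets none of 5 at 0.44 and the STAT5, HIF2A and CITED2 list none of 4 at 0.11. The counts below for PPAR targets, autophagy and lysosome genes, ER chaperones and heat shock genes were near or under the share over all genes. After centring by GC content and length the pioglitazone shift was -0.38 for primary granule genes, 0.08 for PPAR targets, -0.06 for autophagy and lysosome genes and -0.23 for p53 targets. It was then 0.08 for glycolysis and hypoxia genes, 0.43 for cytoskeleton and adhesion genes, -0.27 for ER chaperones, 0.11 for ribosomal proteins and 0.0 for stem and surface antigens. Most of the counts below DMSO shrank when ratios were taken relative to the median gene: 2 primary granule genes, 2 p53 targets, 1 G1/S gene, 2 autophagy and lysosome genes, 2 myeloid transcription factors, 1 pyruvate carrier or mitoNEET gene and no PPAR target were then past the fold below. Of PPAR targets 1 was then above, and NF-kB genes had 5 above and immediate early genes 6 above, with none below in either.

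**Figure D4:**
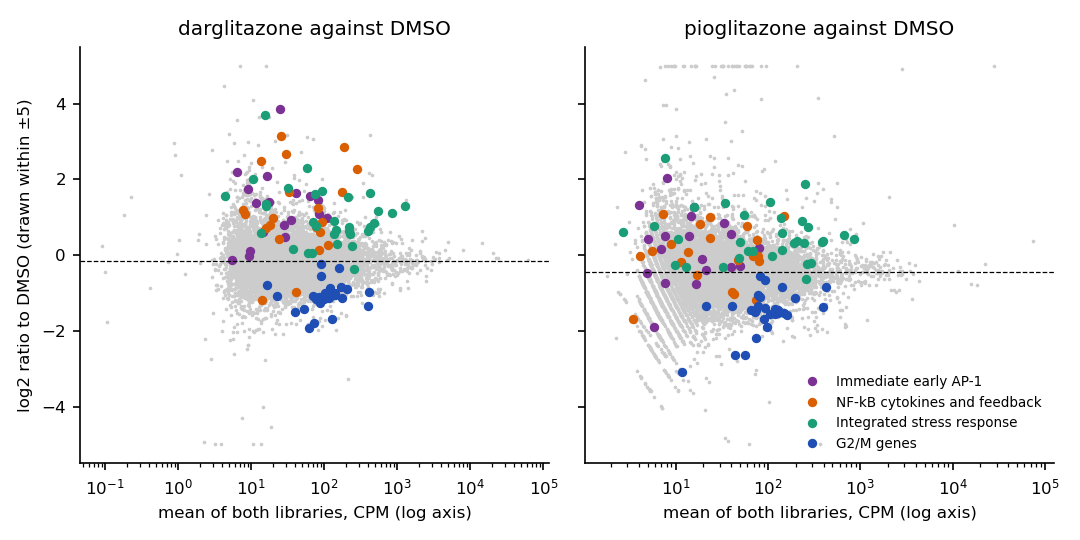
Log2 ratio to DMSO (vertical axis) against the mean CPM of both libraries (horizontal, log axis) for darglitazone (left) and pioglitazone (right) in OCI-AML3, each grey point a measured gene and the dashed line the median gene at -0.16 and -0.44. Immediate early, NF-kB and integrated stress response genes lie mostly above the line with darglitazone, and G2/M genes lie under it with both drugs.

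The genes furthest above DMSO with pioglitazone were OR11H2, CYP24A1, KRT82, RIT2, OR11H1, KIF7, CPA6, TEX14, ABCA8 and PRAMEF25. All but TEX14 and ABCA8 had no count with DMSO, and none was above 0.34 CPM with darglitazone. All of these genes also had counts in the MOLM-14 darglitazone library, from 0.739 CPM (PRAMEF25) to 7.07 CPM (OR11H2). KRT82, a hair keratin, and RIT2, a neuronal GTPase, were at 2.96 and 2.53 CPM there. Those furthest below were HIST2H2AA3, H3C4, EIF3CL, ARHGEF18, ZNF576, METTL7B, TREX1, ZBTB45, SEPT5-GP1BB and BCL2L2-PABPN1, all with 0 or 1 count in the pioglitazone library. TREX1, a DNA exonuclease, was at 13, 0.818 and 9.9 CPM, and its log2 ratio of -3.99 had an interval of -9.29 to -1.5. HIST2H2AA3 and EIF3CL have near-identical copies, and SEPT5-GP1BB and BCL2L2-PABPN1 are read-through genes, so their values are uncertain.

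The drugs were compared directly at the same dose and time, as 1 pair. Relative to pioglitazone, darglitazone had 1365 genes past the fold above (13.4%) and 357 below (3.5%). The median gene lay at 0.28, and relative to it the split was 669 above and 654 below. NF-kB genes were above in 10 of 21 and below in 1, and immediate early genes above in 9 of 19 and below in none, at shifts of 0.69 and 0.71. Relative to the median gene these counts were 9 and 7 above, and after centring by GC content and length 8 and 4. TNF had a log2 ratio of darglitazone to pioglitazone of 2.11 (1.81 to 2.42), IL1B of 3.02 (1.98 to 4.34), GDF15 of 3.11 (1.75 to 4.99) and RGS16 of 2.14 (1.95 to 2.35). SQSTM1 was at 1.04 (0.77 to 1.32), and at 0.76 relative to the median gene and 0.36 after centring by GC content and length. Integrated stress response genes were above in 6 of 32 at a shift of 0.24 (3 and 0.08 after centring), with DDIT3 at 2.09 (1.34 to 2.97) and ATF4 under the fold. For DDIT4 the log2 ratio was 0.93 (0.56 to 1.32), and for VIM 0.48 (0.36 to 0.6), both under the fold.

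Of 28 G2/M genes 4 were above with darglitazone relative to pioglitazone and none below, at a shift of 0.10 (0.15 after centring). Against the median gene 1 was above. CCNB1 was at -0.17 (-0.49 to 0.17) and TTK at -0.45 (-0.85 to -0.03). These intervals cover counting error only and do not show that the drugs act alike. Histone genes were above in 6 of 27 at a shift of 0.60, and at 0.34 after centring by GC content and length, and relative to the median gene none was above (2 after that centring). Cholesterol synthesis genes were below in 1 of 24, HMGCS1 at -1.12 (-1.36 to -0.88), at a shift of -0.48. Mitochondrially encoded genes were below in 3 of 12 (6 relative to the median gene and 4 after centring) at -0.99, and at -0.68 after centring. The 5 genes furthest above were HIST2H2AA3, H3C4, ZNF320, ARHGEF18 and ZNF576, each with 0 or 1 count in the pioglitazone library. The 5 furthest below were OR11H2, CYP24A1, KRT82, RIT2 and FREM2, which were at most at 0.166 CPM in the DMSO and darglitazone libraries. MALAT1, an abundant nuclear RNA, was at 105, 929 and 177 CPM.

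Whether a change in OCI-AML3 lay outside the spread of the same change over MOLM-14, MV4-11 and KG-1a was tested with edgeR's quasi-likelihood F test over 15424 genes. The spread came from the other 3 lines (4 residual degrees of freedom), and OCI-AML3, with 1 library per treatment, is assumed to vary as they do. For darglitazone 53 genes were higher in OCI-AML3 (0.344%) and 20 lower (0.13%) at an adjusted p of 0.05. For pioglitazone 71 were higher (0.46%) and 112 lower (0.726%). The counts moved with the lines used: without MOLM-14 they were 9 and 2 for darglitazone and 38 and 8 for pioglitazone. Without KG-1a they were 185 and 149 for darglitazone and 102 and 397 for pioglitazone, and without MV4-11 they were 133 and 61 and 121 and 166.

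With darglitazone, NIBAN2, ICAM1, ITGA6, CPXM1, GATA2, DUSP6, TIMP1, FLNA, OTULINL and OAF had the smallest p. GATA2, a transcription factor of blood stem and progenitor cells, was at 23.9 CPM with DMSO and 88.6 with darglitazone in OCI-AML3, while MOLM-14 had 11.9 and 10.1, MV4-11 5.76 and 4.88, and KG-1a 477 and 504. Its change was 2.07 log2 units above that of the other lines (edgeR, adjusted p = 0.00143). ICAM1 was at 0.547 CPM with DMSO and 12.2 with darglitazone in OCI-AML3, and at 39.9 and 37.8, 5.76 and 7.6, and 58.4 and 49.7 in MOLM-14, MV4-11 and KG-1a. Its difference was 4.56 (edgeR, adjusted p = 0.000945). NIBAN2, which dampens apoptosis, went from 4.66 to 37.5 CPM in OCI-AML3, with a difference of 3.19 (edgeR, adjusted p = 0.00084). In the other lines these genes stayed close to their DMSO level, and for these 3 the call held when any of the other lines was left out.

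For IL1B the difference was 3.13 (edgeR, adjusted p = 0.0302): MOLM-14 went from 1.01 to 0.317 CPM, MV4-11 from 2.26 to 2.56 and KG-1a from 18.9 to 28.6. For SQSTM1 the difference was 1.36 (edgeR, adjusted p = 0.0255), with 101 and 97 CPM, 126 and 146 CPM, and 150 and 165 CPM in those lines. Leaving out a line left 2 residual degrees of freedom. Without MOLM-14 both lost the call while the difference stayed near its size, at 2.8 for IL1B (edgeR, adjusted p = 0.133) and 1.26 for SQSTM1 (edgeR, adjusted p = 0.219). DUSP6, TIMP1, FLNA, OTULINL and OAF also lost the call without MOLM-14, at differences of 1.49, 1.55, 1.44, -2.12 and 1.7 and adjusted p from edgeR of 0.116, 0.116, 0.106, 0.0575 and 0.132. Without KG-1a ITGA6 and CPXM1 lost it, at differences of 3.37 and 3.53 and adjusted p from edgeR of 0.0832 and 0.0901. With all libraries thinned to the smallest total, ICAM1, ITGA6, CPXM1 and IL1B lost it, at differences of 6.16, 5.62, 4.18 and 3.23 and adjusted p from edgeR of 0.115, 0.186, 0.518 and 0.102. GDF15 did not pass (difference 5.21, edgeR, adjusted p = 0.132), at no more than 0.59 CPM in any library of the other lines. It passed without KG-1a (difference 5.92, edgeR, adjusted p = 0.0346), with limma-voom (4.77, adjusted p = 0.0143) and with no filter on low counts (5.14, edgeR, adjusted p = 0.00988), and over all its alternatives the adjusted p ran up to 0.647. Members of the lists that passed with darglitazone were 3 of 21 NF-kB genes (IL1B, NFKBIA and PLAUR), 1 of 19 immediate early genes (DUSP6), 4 of 32 integrated stress response genes (ATF4, SESN2, DDIT4 and SLC3A2) and 3 of 16 cytoskeleton and adhesion genes (VIM, FLNA and TIMP1), all higher. Among G2/M genes CCNB1 and TTK passed, both lower. In the other lists IRF7, PKM and CD82 passed as higher and CCNG1 and H4C9 as lower.

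The shifts of these lists in the other lines are set beside those of OCI-AML3 as values. They rest on the members measured in OCI-AML3 that were also measured in the other line, so the gene sets differ. In OCI-AML3 itself 19 of 21 NF-kB, 16 of 19 immediate early and 29 of 32 integrated stress response genes were at 5 CPM in DMSO. The remaining members were measured only through a drug library, and shifts without them were not computed. For NF-kB genes these were 13, 15 and 16 in MOLM-14, MV4-11 and KG-1a against 21 in OCI-AML3. For immediate early genes they were 15, 12 and 11 against 19. IL1B, for example, was not measured at this level in MOLM-14 and MV4-11. With darglitazone MOLM-14 had an NF-kB shift of -0.06, MV4-11 one of 0.0 and KG-1a one of -0.01. The integrated stress response shift was -0.10, -0.07 and 0.0 in these lines, and the immediate early shift -0.06, -0.08 and -0.08. The G2/M shift was -0.19, -0.35 and -0.08, on the same side as in OCI-AML3. The NRF2 shift was 0.13, 0.44 and 0.18, against 0.54 in OCI-AML3. With pioglitazone the immediate early shift was 1.07 in MV4-11, above the 0.64 of OCI-AML3, and the cholesterol shift was 0.21, 1.13 and 0.72 in the 3 other lines. The integrated stress response shift was then -0.05, 0.65 and 0.18 in these lines, against 0.82 in OCI-AML3. The NRF2 shift was 0.03, 0.63 and 0.16, against 0.47.

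**Figure D5:**
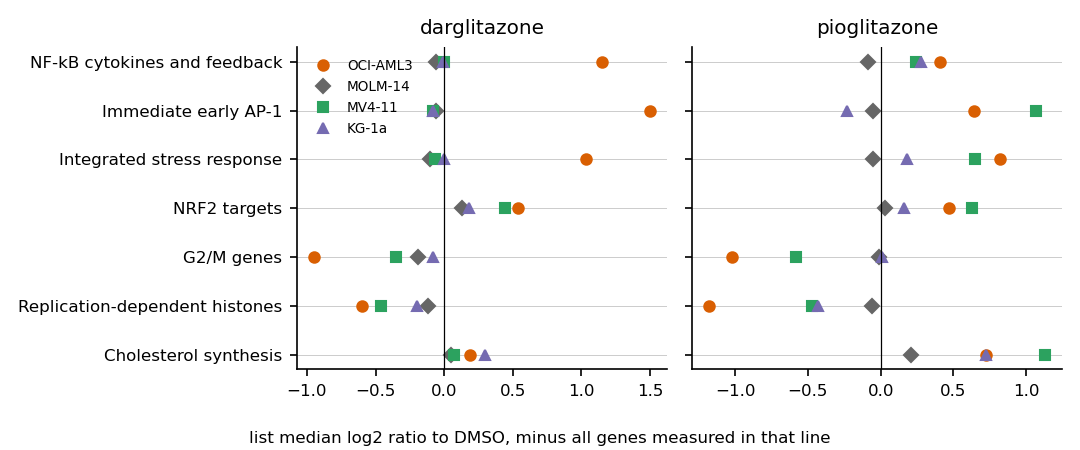
Shift of 7 gene lists (horizontal axis, median log2 ratio to DMSO of measured members minus that of all genes measured in the line) in 4 lines, for darglitazone (left) and pioglitazone (right), 1 library per line and treatment and no error bar. With darglitazone the NF-kB, immediate early and integrated stress response lists lie at 1.15, 1.5 and 1.03 in OCI-AML3 and between -0.10 and 0.0 in the other lines. Members were measured in OCI-AML3, and those not also measured in another line are left out there, so the gene sets differ between lines. Some members reached 5 CPM in OCI-AML3 only through a drug library, and shifts without them were not computed.

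With pioglitazone the genes with the smallest p were AC004057.1, H3C4, IFITM1, CBX5, MALAT1, HLA-DRA, MATK, IGF2BP2, RNU2-1 and SPINT2. Several are abundant in KG-1a: HLA-DRA, an MHC class II chain, was at 0.945, 14.7 and 0.971 CPM in OCI-AML3 with DMSO, pioglitazone and darglitazone, and at 690, 599 and 587 CPM in KG-1a. IFITM1 was at 0.564, 11.5 and 0.728 CPM in OCI-AML3 against 731 CPM in KG-1a with DMSO. Of 27 tested histone genes 14 were lower (edgeR), among them H1-5 and H4C2, and of 28 G2/M genes 3 were, AURKA, DLGAP5 and NUSAP1. SLC7A1 was the 1 integrated stress response gene that passed, higher. MATK and IGF2BP2 lost the call when all libraries were thinned, at differences of 5.91 and 5.35 and adjusted p from edgeR of 0.0774 and 0.169. The part of the KG-1a pattern, the ribosomal DNA entry and the depth of the pioglitazone library in these calls was not tested.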

How the data were processed

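The deposited table held estimated counts per transcript for 12 libraries, without normalization. The submitters' processing notes name STAR, featureCounts, DESeq2, fastp and FastQC, with GRCh38, as tools of the authors. The tool that estimated the counts and the annotation are not given in the sources used here. Of 203027 transcripts 202941 matched GENCODE release 29. Their counts were summed over 57865 genes and rounded. Ratios used CPM scaled by TMM over 12 libraries (edgeR 4.0.16), with counts of 0 set to 3 counts. Intervals are 95% Clopper-Pearson intervals on the counts of a pair. The line test (R 4.3.3, edgeR robust quasi-likelihood, Benjamini-Hochberg, filterByExpr with a minimum count of 10) had terms for line, treatment and OCI-AML3 by each drug. limma 3.58.1 and DESeq2 1.42.0 served as alternatives. Reads of another line were estimated from genes at 30 CPM or more in that line and at 5% or less of that level elsewhere (under 1% in the lowest OCI-AML3 library), and were subtracted in an alternative. P-values measure the spread between lines and not between repeat cultures. Promoters came from RefSeq (GRCh38.p14).

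The members, the 33 gene lists and the naming rule were chosen with earlier results of these data known. The rule named IL1B, GDF15, SQSTM1, 21 preset genes, the 10 highest and 10 lowest protein-coding genes per drug whose interval lies beyond 1.5-fold (5 and 5 between the drugs), up to 4 members per list furthest from DMSO with darglitazone, and the 10 genes of smallest p per drug in the line test. Other list members, such as FOXM1, FOS, NFKBIA and SLC7A11, were named after their values were seen. The result for 1 preset gene is not reported here.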

Additional observations from a re-analysis of the deposited data

Results flagged for a closer look

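Of the genes whose change differed between OCI-AML3 and the other 3 lines by the edgeR quasi-likelihood test, 22 were flagged. They are the 10 of smallest p per drug, with IL1B and SQSTM1 for darglitazone. The test called 53 genes higher and 20 lower with darglitazone, and 71 and 112 with pioglitazone. With darglitazone the differences, in log2 units of OCI-AML3 over the mean of the other lines, were 3.19 for NIBAN2, 4.56 for ICAM1, 3.86 for ITGA6, 3.59 for CPXM1 and 2.07 for GATA2. They were 1.56 for DUSP6, 1.56 for TIMP1, 1.48 for FLNA, -1.98 for OTULINL, 1.73 for OAF, 3.13 for IL1B and 1.36 for SQSTM1. ITGA6 and CPXM1 were at 0.431 and 0.182 CPM with DMSO in OCI-AML3 and rest on few counts there. ITGA6 was also at 7.36 CPM with pioglitazone in OCI-AML3 and at 235 CPM with DMSO in KG-1a.

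With pioglitazone the differences were -3.72 for AC004057.1, 4.74 for IFITM1, 2.13 for CBX5, 3.25 for MALAT1, 4.15 for HLA-DRA, 6.91 for MATK, 7.89 for IGF2BP2, 1.92 for RNU2-1 and 7.95 for SPINT2. H3C4 had no count in the pioglitazone library, so its fitted value of -13.72 gives no size. MATK, IGF2BP2 and SPINT2 were at or under the 3-count floor with DMSO, and their fitted values give no size either. MATK was at 153 CPM, IGF2BP2 at 69.8 CPM and SPINT2 at 257 CPM with DMSO in KG-1a.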

How the results depend on the processing

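Counts of genes past the fold rest on the scaling, the level required and depth. In OCI-AML3 they were 266 above and 400 below DMSO with darglitazone, 300 and 1639 with pioglitazone, and 1365 and 357 for darglitazone over pioglitazone. With DESeq2 size factors 233 were below with darglitazone, 537 above and 670 below with pioglitazone, and 774 above and 569 below between the drugs. With total counts alone 259 were below with darglitazone, and 464 above and 873 below with pioglitazone. With protein-coding genes only, 223 were below with darglitazone, 478 above and 627 below with pioglitazone, and 723 above between the drugs. With TMM over the 3 libraries 1027 were below with pioglitazone. At a mean of 1 CPM the counts were 658 and 735 with darglitazone, 779 above with pioglitazone and 782 below between the drugs. At 20 CPM they were 98 and 197, 110 and 961, and 764 and 118. At 3-fold they were 97 and 70, 148 and 488, and 391 and 132. With the libraries thinned to the pioglitazone total they were 411 above with darglitazone, 595 and 587 with pioglitazone, and 695 and 613 between the drugs. With the estimated KG-1a reads subtracted they were 264 and 400, 289 and 1785, and 1491 and 348. In settings chosen after seeing the data, centring on the median gene gave 221 below with darglitazone, 652 and 552 with pioglitazone, and 669 and 654 between the drugs. Centring by GC content and length gave 166 below with darglitazone, 630 and 473 with pioglitazone, and 414 above between the drugs.

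In the line test, DESeq2 called 178 higher and 100 lower with darglitazone and 205 higher with pioglitazone. limma-voom called 586 and 525 with darglitazone and 10 lower with pioglitazone. No filter on low counts gave 256 and 358, and 209 and 1242. DESeq2 size factors in edgeR gave 34 lower with pioglitazone, and thinning all libraries 47. Leaving out each other line gave 9 to 185 higher and 2 to 149 lower with darglitazone, and 38 to 121 higher and 8 to 397 lower with pioglitazone. In settings chosen after seeing the data, GC offsets gave 13 lower with darglitazone and 29 with pioglitazone, and leaving out the OCI-AML3 pioglitazone library 35 lower with darglitazone. Of the 53 higher calls with darglitazone, 52 were shared with limma-voom, 43 with DESeq2 and 6 with the fit without MOLM-14. Why these counts moved was not tested.

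The shift of the stem and surface antigens between the drugs changed sign to -0.02 after centring by GC content and length, and the darglitazone ratio of METTL7B to 0.82 when thinned. Of 1036 list medians 1008 moved by less than their spread, and of 2392 gene ratios 2286 kept their side of the fold. No paired analysis was possible because each group has 1 library and the line already enters the fit. Depth limits the pioglitazone values: 3 counts there correspond to 2.45 CPM, the level at which genes without a count were set.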
